A study of Mus musculus with 5 samples.

Results

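Rab GTPases are small membrane switches, and transcripts of 59 of them were followed here in progenitors of mouse bone marrow. The members are the probe sets whose single annotated gene symbol is Rab followed by digits and at most a letter. They number 132 of the 34945 probe sets with 1 symbol and stand for 59 of 18193 genes. A further 11 probe sets of Rab3il1, Rab5if, Rab10os and Rab26os match the spelling but encode no Rab GTPase, and they are given apart. Symbols of Rab-binding partners and of Rab3gap subunits were not members. The common dendritic cell progenitor (CDP, 3 arrays), which gives rise to dendritic cells, was compared with the common myeloid progenitor (CMP, 2 arrays), a stage from which the granulocyte, monocyte, red cell and platelet lineages can all arise. All cells came from C57BL/6 mice of wild type genotype and were sorted a second time after the first sort. Both populations lacked lineage markers, Sca-1, CD16 and CD32 and carried CD34 and Flk2, while CDP had intermediate c-Kit with CD115 and CMP had high c-Kit without CD115 or CD11c. RNA from 10000 to 30000 cells was amplified over 2 cycles for each array. CDP 3 carries a title with the prefix CM in place of the BM used for the other 4 arrays, while its tissue and cell type labels match those of the other CDP arrays, and it was kept in that group. No label ties an array to its own animal or pool of animals, so p-values reflect only how far these 5 samples spread, and that spread may be technical.

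A Rab protein bound to GTP marks a membrane and recruits effectors that tether, move or fuse vesicles there. Exchange factors load it with GTP, GTPase-activating proteins switch it off, and escort and dissociation proteins carry its lipid-modified form between membranes. In cells of the dendritic lineage this traffic moves antigen through endosomes and phagosomes, and in granule-forming myeloid cells it builds and releases lysosome-related granules.

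The sorted populations were set against their defining genes first. Itgax (CD11c) was at 6.38 to 7.78 (log2) on the CDP arrays and at 2.26 on both CMP arrays. Kit was higher on both CMP arrays. Csf1r (CD115) was at 12.94 to 13.16 in CDP and also at 11.75 and 11.03 in CMP, which was sorted without CD115. Though both populations were sorted without CD16 and CD32, Fcgr2b (CD32) was at 8.72 to 10.25 over the 5 arrays. Its probe set may also match other transcripts. The arrays measure transcripts, whereas the cells were sorted by surface markers. Fcgr3 (CD16) was at 4.60 to 5.40. Flt3 (Flk2) and Cd34 were detected on all 5. Log2 5 serves here as the detection level, and 34.0% to 35.8% of an array's probe sets reached it. The 5′ beta-actin control was low on CDP 1 and CMP 1 (6.54 and 6.71) against 10.52 to 12.97 on the other arrays. Neutrophil genes were seen on CDP 2 alone, where 8 of 9 reached the detection level and 0 of 9 did on any other array. Log2 of their summed signal was 14.00 there and 5.78 to 6.24 elsewhere.

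Of 35 tested Rab genes 1 passed the test, Rab38, which was lower in CDP. That is 2.86%, near the 2.14% of all tested genes that passed, and 34 Rab genes not passing does not show that they were equal. Rab38 works with its close relative Rab32 to deliver cargo to melanosomes, platelet dense granules and other lysosome-related organelles. Its brighter probe set read 7.78, 7.03 and 8.16 on CDP 1, CDP 2 and CDP 3 and 11.05 and 10.27 on CMP 1 and CMP 2. All 3 CDP arrays lay more than 2 log2 units below both CMP arrays. The means were 7.66 ± 0.57 (SD, n = 3) and 10.66 ± 0.55 (SD, n = 2), and the difference, CDP minus CMP, was -3.00 ± 0.46 (SE), or 8.02-fold lower in CDP (limma, adjusted p = 0.0439). In order of difference it was number 30 from the most lowered of 8449 tested genes.

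The second Rab38 probe set moved the same way without passing the threshold. It read 6.02, 6.55 and 7.13 on the CDP arrays and 9.16 and 11.14 on CMP 1 and CMP 2, again with no overlap. Its difference was -3.59 ± 0.66 (SE, limma adjusted p = 0.0644), and it ranged from -4.58 without CMP 1 to -2.60 without CMP 2. The brighter probe set is of a type (suffix x) that may also match other transcripts, and the second is not. CDP 1 minus CMP 1, the pair with low 5′ actin, gave -3.27 for the brighter set, and CDP 2 and CDP 3 against CMP 2 gave -2.68. With that signal as a block both probe sets passed, at adjusted p = 0.0122 and 0.0053. Leaving out any 1 array ended the call of the brighter set, with differences between -3.39 and -2.61 and adjusted p from 0.0945 to 0.188. Without CDP 2, CDP 3, CMP 1 or CMP 2 no probe set of the whole table was called, and without CDP 1 there were 44 (0.27%). Over the other settings the share of all probe sets called was 1.53% with quantile normalization and 1.53% with median scaling, 1.78% with the filter at log2 7, 0.122% without a filter, 1.49% with a trended and 1.52% with a robust prior variance, 1.59% with array weights, 3.67% with the replicate block and 1.72% without probe sets of suffix x or s, and of genes 3.47% with probe sets averaged.

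Some genes used as markers of mast cells, basophils or megakaryocytes were lower in CDP, as Rab38 was. Of 7 mast cell and basophil genes with a probe set, 4 reached the detection level on both CMP arrays. On CDP 1, CDP 2 and CDP 3 the counts were 2, 3 and 2, and Mcpt8 and Gata2 reached the level on all 5 arrays. Log2 of the list's summed signal was 10.07 to 11.15 in CMP and 7.16 to 7.30 in CDP. Cpa3 was at 8.76 and 6.25 in CMP and 2.26 on all CDP arrays, whereas Fcer1a and Cma1 were at 2.26 throughout and Ms4a2 stayed below the detection level. Of 6 megakaryocyte genes 2 reached the level on both CMP arrays, with a summed signal of 7.09 to 7.28 in CMP and 5.75 to 6.54 in CDP, and Ppbp, Gp9, Gp1bb and Vwf stayed below it on every array. Itga2b also reached the level on CDP 2 and CDP 3, at 5.07 and 5.46. Whether such cells were among those sorted was not tested, nor was any part of theirs in the Rab38 difference. In such bulk samples fewer cells of a type and less RNA per cell cannot be told apart.

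**Figure D1:**
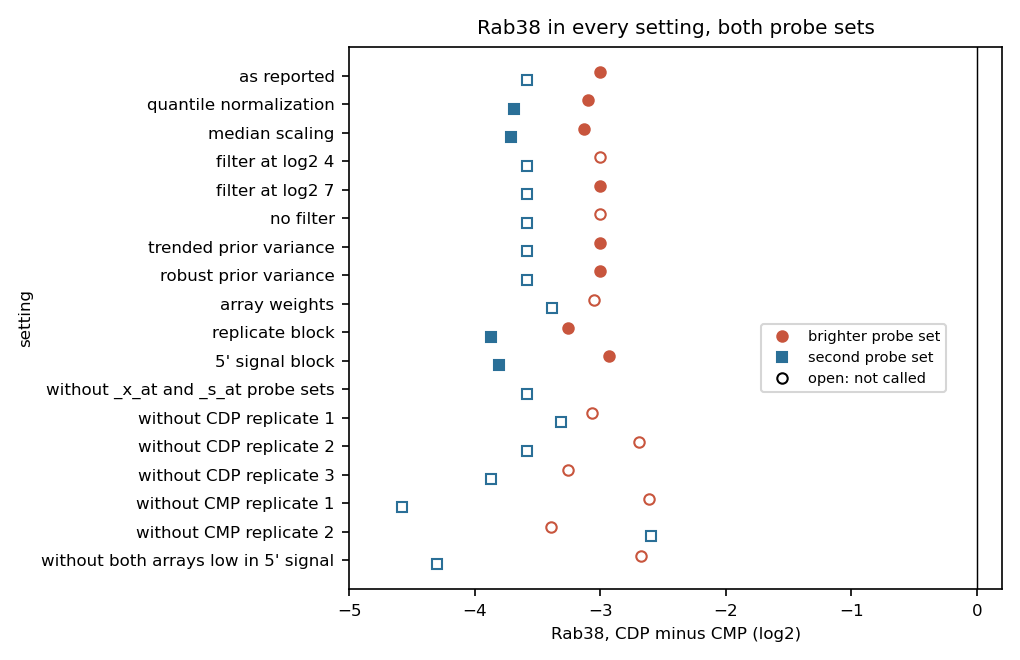
Difference of Rab38 between CDP and CMP (x axis, log2) under each setting (y axis) for its brighter probe set (circles) and its second probe set (squares), with filled symbols where the adjusted p was under 0.05. All values lie between -4.58 and -2.60, and the call is made in some settings and not in others.

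Of the 59 Rab genes, 35 were tested, because a probe set of theirs reached log2 5 on at least 2 arrays. Of these 1 was lower in CDP, 0 were higher and 34 did not pass (limma with Benjamini-Hochberg adjustment over all 16552 tested probe sets). The share called among all 8449 tested genes was 2.14% (0.473% lower, 1.67% higher), so 1 of 35 is near the background. At an unadjusted p under 0.05 there were 5 higher and 1 lower. By probe set, 1 of 67 was called, against 1.73% of all (0.423% lower). The groups did not overlap for 14 of the 35 genes, 9 higher and 5 lower in CDP, where 34.5% of all tested genes did not overlap (23.7% higher, 10.8% lower). Differences were above 0 for 25 of 35 (71.4%) and for 60.6% of all tested genes. The median difference of the 35 genes was 0.25, against 0.17 over all tested genes, and 28 of 35 (80.0%) differed by under 1 log2 unit, as did 81.0% of all. That median became 0.11 without CMP 1. The standard errors ran from 0.30 to 1.41 with a median of 0.40, and the smallest difference called anywhere in the table was 1.86, so no smaller difference was called for any gene.

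**Figure D2:**
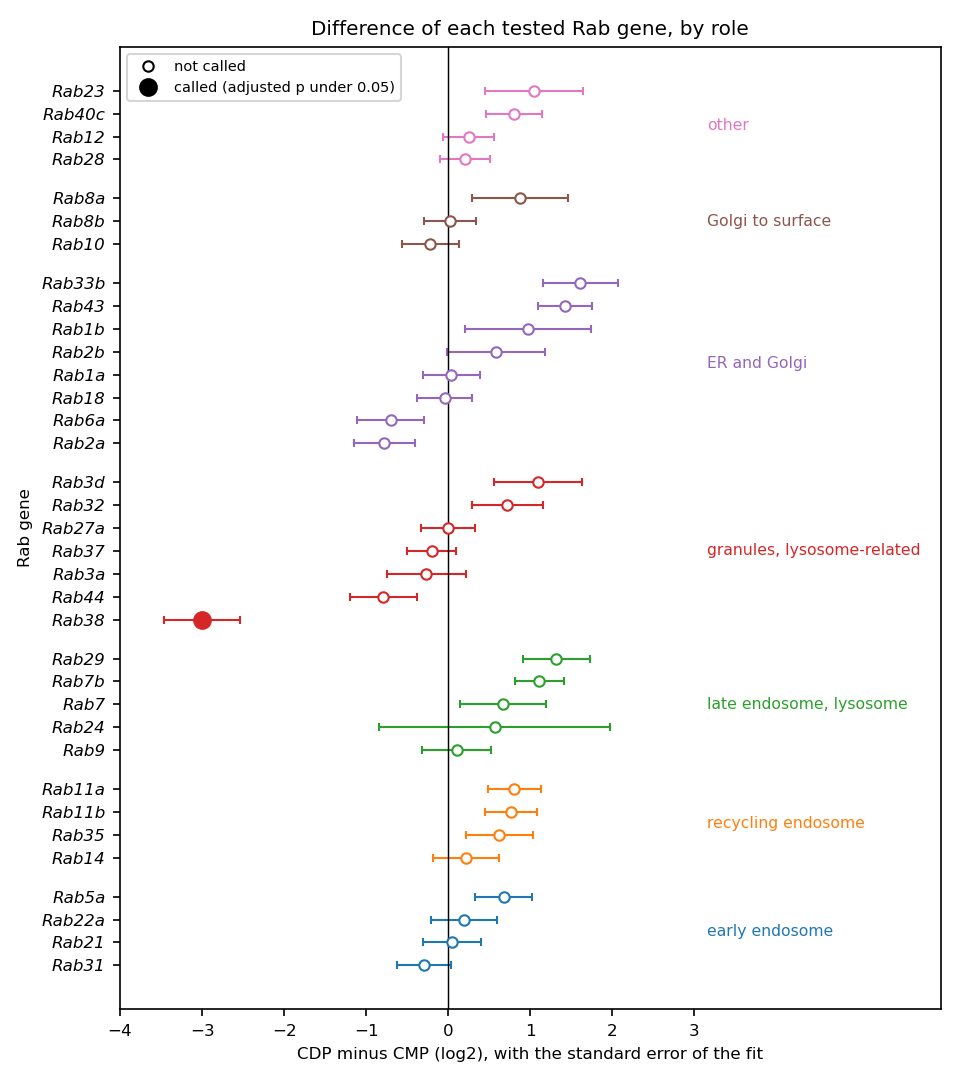
CDP minus CMP difference (x axis, log2) of the 35 tested Rab genes (y axis), 1 probe set each, grouped by role, with bars for the standard error of the fit. Rab38 at -3.00 is the filled point that passed the threshold, and the others lie between -0.79 and 1.61.

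Upstream sequence from RefSeq (GRCm38.p6) was set beside these values for 48 Rab genes, 29 of them tested, taking the 250 bases before the most upstream start of each gene. Rab38 was not among the 48. Short motifs were searched on both strands, and a match describes letters and shows no binding. GAGGAAGT, of the kind bound by PU.1, was found before Rab2b and Rab32, which is 6.90% of the 29 tested genes, and before 2.42% of 27025 genes in all. CACGTG, the core bound by many E-box factors, was found before Rab5a, Rab21 and Rab23 (10.3%) and before 6.04% of all. TCATGTG, of the kind bound by MITF, was found before Rab28 (3.45%) and before 3.21% of all. TGATAA, of the kind bound by GATA factors, was found before Rab7, Rab14 and Rab32 (10.3%) and before 8.12% of all. The other GATA form, AGATAA, was found before 0 of the 29 and before 10.2% of all. The 150 bases just before the start are shown for Rab5a and Rab21, which share CACGTG, for Rab32 as the relative of Rab38, for Rab43, and for the 4 regulators that passed, which are described further on: Dennd2c, Dennd1c and Tbc1d8, higher in CDP, and Sytl4, lower. Matches are in capitals.
Rab5a (chr17:53479084-53479233, plus strand): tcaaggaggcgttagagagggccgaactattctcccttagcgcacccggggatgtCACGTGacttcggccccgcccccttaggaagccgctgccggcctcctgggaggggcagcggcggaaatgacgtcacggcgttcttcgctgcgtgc
Rab21 (chr10:115315592-115315741, minus strand): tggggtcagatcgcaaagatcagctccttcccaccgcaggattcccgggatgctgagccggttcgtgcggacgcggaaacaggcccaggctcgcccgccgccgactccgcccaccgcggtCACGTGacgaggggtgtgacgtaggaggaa
Rab32 (chr10:10558208-10558357, minus strand): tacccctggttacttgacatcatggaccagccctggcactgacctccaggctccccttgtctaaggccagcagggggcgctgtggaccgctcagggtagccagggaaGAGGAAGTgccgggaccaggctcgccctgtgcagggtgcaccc
Rab43 (chr6:87812165-87812314, minus strand): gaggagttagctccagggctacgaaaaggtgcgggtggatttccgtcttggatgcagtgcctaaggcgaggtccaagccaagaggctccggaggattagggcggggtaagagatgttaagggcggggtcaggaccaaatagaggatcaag
Dennd2c (chr3:103127406-103127555, plus strand): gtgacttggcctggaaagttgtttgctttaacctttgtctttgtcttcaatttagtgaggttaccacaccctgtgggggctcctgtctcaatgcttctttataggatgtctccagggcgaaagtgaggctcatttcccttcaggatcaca
Dennd1c (chr17:57078499-57078648, minus strand): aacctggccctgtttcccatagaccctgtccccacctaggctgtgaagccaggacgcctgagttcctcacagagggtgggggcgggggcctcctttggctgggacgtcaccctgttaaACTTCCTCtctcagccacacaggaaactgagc
Tbc1d8 (chr1:39478756-39478905, minus strand): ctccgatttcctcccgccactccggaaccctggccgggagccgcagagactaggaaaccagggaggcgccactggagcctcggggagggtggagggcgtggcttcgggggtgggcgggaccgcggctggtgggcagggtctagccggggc
Sytl4 (chrX:133981813-133981962, minus strand): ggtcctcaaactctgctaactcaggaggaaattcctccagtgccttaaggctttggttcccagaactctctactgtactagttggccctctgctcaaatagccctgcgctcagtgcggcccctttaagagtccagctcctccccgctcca
Rab32 carries GAGGAAGT, and Dennd1c carries it on the reverse strand, 1 of the 3 regulators higher in CDP. Dennd2c holds only TGATAA, further upstream than the stretch shown. Tbc1d8, Sytl4 and Rab43 hold no match in the bases searched.

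Granule and lysosome-related Rab genes were 7 of those tested, and apart from Rab38 none passed. Rab32, the relative of Rab38, read 9.98, 9.92 and 9.77 in CDP and 8.56 and 9.78 in CMP, so that CMP 2 fell within the CDP range. Its difference was 0.72 ± 0.43 (SE, adjusted p = 0.493), 1.42 for CDP 1 minus CMP 1 and 0.07 for the other 3 arrays. Rab27a, which docks granules and lysosomes at the cell surface, was the most even of the group, at 10.51, 10.24 and 10.26 in CDP against 10.08 and 10.60 in CMP (-0.0028 ± 0.33 SE). Rab44, a large Rab with calcium-binding motifs, read 9.44, 9.88 and 10.14 in CDP and 10.21 and 11.02 in CMP. All its CDP values were below both CMP values, yet the difference of -0.79 ± 0.41 (SE) did not pass (adjusted p = 0.416).

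Rab37, found on secretory granules, was at 7.08, 7.18 and 7.28 in CDP and 7.34 and 7.42 in CMP. The groups were apart by little, with a difference of -0.20 ± 0.30 (SE, adjusted p = 0.812). Rab3d, a Rab of regulated secretion, read 8.03, 9.40 and 9.06 in CDP and 7.24 and 8.23 in CMP (1.10 ± 0.54 SE, adjusted p = 0.397). Its 3 tested probe sets did not have the same sign and ran from -0.17 to 1.79. The set at 1.79 was below log2 5 on CDP 1 and both CMP arrays and entered the test through CDP 2 and CDP 3. Rab3a was at -0.27 ± 0.48 (SE) close to the detection level, and Rab3b, Rab3c, Rab26 and Rab27b stayed below it on every array.

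The recycling Rab genes tested, Rab11a, Rab11b, Rab35 and Rab14, all had positive differences and none passed. Of all tested genes 60.6% had a positive difference. Rab11a, the main Rab of the recycling endosome, read 10.37, 10.37 and 10.30 in CDP and 9.81 and 9.27 in CMP. Its CDP arrays were nearly equal and above both CMP arrays, with a difference of 0.81 ± 0.32 (SE, adjusted p = 0.304). Rab11b was at 8.87, 8.73 and 8.68 in CDP and 8.21 and 7.78 in CMP (0.76 ± 0.32 SE, adjusted p = 0.318). Its 3 tested probe sets ran from 0.06 to 0.76. Rab35, which returns cargo quickly from endosomes to the surface, was at 0.62 ± 0.41 (SE) without overlap. Rab14, which links Golgi and endosomes, had 7 tested probe sets with differences from -0.39 to 0.42, and the brightest gave 0.22 ± 0.40 (SE). That brightest set read 13.92, 13.48 and 13.52 in CDP and 13.89 and 12.95 in CMP. Rab4a, of fast recycling, read 3.29, 2.80 and 2.80 in CDP and 2.88 and 3.29 in CMP on its brighter probe set, and Rab4b (up to 4.99), Rab15 and Rab25 also stayed below the detection level.

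Among late endosomal and lysosomal Rab genes, all 5 tested differences were positive, as were 60.6% of those of all tested genes, and none passed. Rab7b, which acts between late endosomes and the Golgi, read 7.44, 7.54 and 7.62 in CDP and 6.50 and 6.35 in CMP. Replicates were tight and the groups were apart by 1.11 ± 0.30 (SE, adjusted p = 0.156). Its other tested probe set gave 1.01 ± 0.38 (SE). Rab29, a Rab of the Golgi and of stressed lysosomes, was at 7.57, 8.31 and 7.91 in CDP and 7.01 and 6.22 in CMP (1.32 ± 0.41 SE, adjusted p = 0.199). Rab7, the switch from late endosomes to lysosomes, read 11.68, 10.50 and 11.25 in CDP and 11.06 and 9.90 in CMP. Its groups overlapped, at 0.66 ± 0.52 (SE, adjusted p = 0.615). Rab9, which returns mannose 6-phosphate receptors to the Golgi, was at 0.10 ± 0.42 (SE). Rab24, linked to autophagy, had the widest standard error of the tested Rab genes (0.57 ± 1.41 SE). It read 7.04 on CDP 1 and 5.58 on CMP 1 against 9.80, 8.39 and 10.11 on CDP 2, CDP 3 and CMP 2, so both arrays low in 5′ signal were below the others. The same order held for 9 of 35 tested Rab genes (25.7%) and for 25.5% of all tested genes. Rab9b, Rab34 and Rab36 stayed below the detection level.

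None of the 4 tested early endosomal Rab genes passed, with 3 differences above 0 and 1 below. Rab5a, which recruits the tether Eea1 and drives early endosome fusion, read 12.20, 12.22 and 11.73 in CDP and 11.62 and 11.13 in CMP. Rab5a and Rab21 share CACGTG upstream, and for Rab5a each CDP value was above both CMP values, but the difference of 0.67 ± 0.35 (SE) did not pass (adjusted p = 0.422). Rab21, which takes up integrins, read 9.28, 9.66 and 9.79 in CDP and 9.23 and 9.84 in CMP (0.05 ± 0.36 SE), and its second probe set gave -0.78 ± 0.41 (SE). The sign of Rab21 turned with quantile normalization or median scaling. Rab22a, of early endosomes and recycling, was at 0.19 ± 0.40 (SE) on its brightest of 3 tested probe sets, which reached 0.98, and Rab31 at -0.30 ± 0.33 (SE). Rab5c read 3.00, 3.90 and 4.31 in CDP and 4.53 and 3.00 in CMP, and Rab5b, Rab17 and Rab20 were likewise below log2 5 on all arrays.

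The Golgi and secretory pathway held the largest positive differences, and none passed in the main comparison. Rab33b, a Golgi Rab that binds the autophagy protein Atg16l1, read 11.35, 10.39 and 10.30 in CDP and 8.73 and 9.42 in CMP. The CDP arrays were all above CMP, by 1.61 ± 0.46 (SE, adjusted p = 0.173), with 2.62 for CDP 1 minus CMP 1 and 0.93 for the other 3 arrays. Rab43, a Golgi Rab that dendritic cells use in cross-presentation, was at 8.55, 8.58 and 8.80 in CDP and 7.48 and 6.96 in CMP. Its difference was 1.43 ± 0.33 (SE, adjusted p = 0.111), or 2.69-fold. With the 5′ signal as a block Rab43 passed as well (1.45 ± 0.29 SE, adjusted p = 0.0338), 1 of 2 Rab genes called there (5.71%) where 9.76% of all genes were (7.1% higher, 2.66% lower). Rab2b, of early secretory membranes, was at 0.58 ± 0.60 (SE) on its brightest probe set, while 2 dimmer ones passed in that blocked fit (adjusted p = 0.0348 and 0.0375, where 8.69% of all probe sets were called). Both dimmer sets were below log2 5 on both CMP arrays and entered the test through CDP alone. With values below log2 5 set to 5 they were at least 1.26-fold and 1.60-fold higher in CDP. The second of them has suffix x and may match other transcripts.

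Rab2a, the close relative of Rab2b, pointed the other way on its brightest probe set, at 11.37, 11.47 and 10.81 in CDP and 12.26 and 11.74 in CMP (-0.78 ± 0.37 SE, adjusted p = 0.381). Its 4 tested sets ran from -0.78 to 0.37. Rab6a, of retrograde Golgi traffic, read 9.38, 9.04 and 8.41 in CDP and 9.39 and 9.90 in CMP (-0.70 ± 0.41 SE, adjusted p = 0.474). CDP 1 and CMP 1 were all but equal for Rab6a. Rab1a and Rab1b, of transport from the endoplasmic reticulum to the Golgi, were at 0.04 ± 0.35 and 0.97 ± 0.77 (SE), and Rab18, of lipid droplets, at -0.05 ± 0.34 (SE). The other tested probe set of Rab18 gave -1.04. On the way from the Golgi to the surface, Rab8a, Rab8b and Rab10 were at 0.87 ± 0.58, 0.02 ± 0.31 and -0.22 ± 0.35 (SE), and Rab13 was below the detection level. The 3 tested probe sets of Rab10 ran from -0.92 to -0.16.

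Rab39, which acts on phagosomes and late endosomes and was singled out after its values were seen, read 4.72, 5.14 and 4.51 in CDP and 2.26 and 2.53 in CMP. It reached log2 5 on CDP 2 alone and so was not tested. With the detection level at log2 4 it passed the test (limma adjusted p = 0.0450), where 1.16% of all probe sets did, but it entered that test through its CDP arrays alone and its CMP values lie at or near the lowest value, where values have no order. With values below log2 5 set to 5 Rab39 was 1.03-fold higher in CDP, which is no lower bound because CDP 1 and CDP 3 were raised too. Rab38 missed the threshold in that setting (adjusted p = 0.0525). Rab6b, Rab19, Rab30, Rab33a and Rab39b were below log2 5 on every array. In the remaining group Rab40c read 8.33, 8.64 and 8.95 in CDP and 7.74 and 7.94 in CMP (0.80 ± 0.34 SE, adjusted p = 0.327). Rab12 read 6.56, 6.75 and 6.63 in CDP and 6.21 and 6.59 in CMP (0.25 ± 0.31 SE), and its other probe set gave -0.66 ± 0.42 (SE). Rab28 was at 8.04, 8.36 and 8.20 in CDP and 8.09 and 7.90 in CMP (0.20 ± 0.31 SE), and its other probe set gave -0.63 ± 0.49 (SE). The groups overlapped for both genes. Rab23, which acts in Hedgehog signalling, was at 1.04 ± 0.59 (SE), with overlap. CMP 1 was below the detection level at 4.06, and CDP 1 minus CMP 1 gave 2.09. CDP 2 and CDP 3 against CMP 2 gave 0.03. With the CMP 1 value set to 5, Rab23 was at least 1.49-fold higher in CDP. Rab40b and Rab42 were below the detection level.

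**Figure D3:**
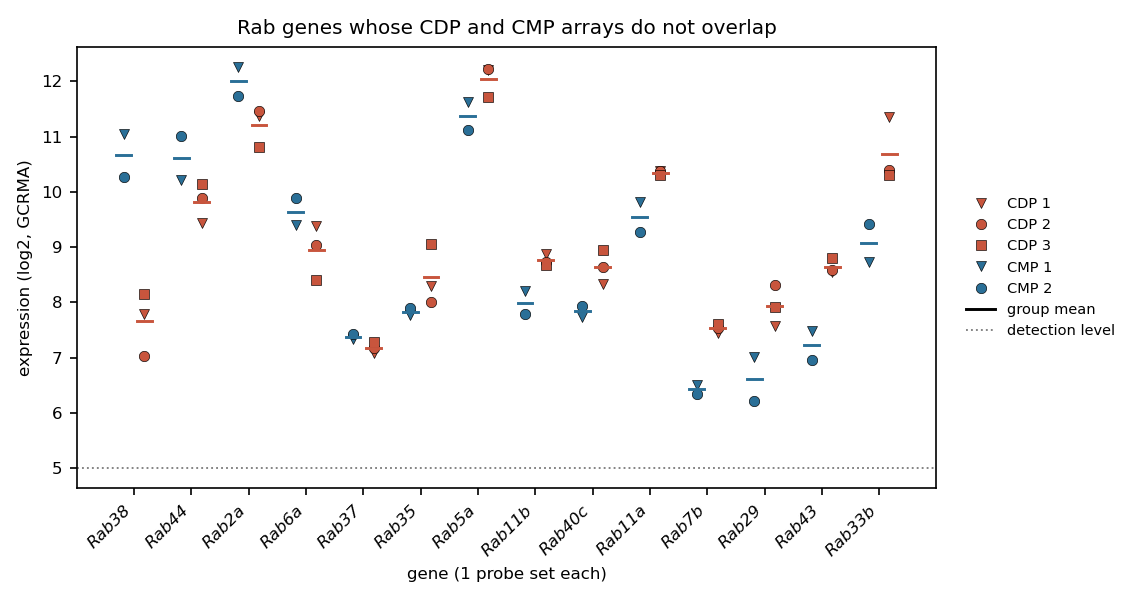
Expression on each array (y axis, log2) of the 14 tested Rab genes (x axis) whose CDP and CMP arrays do not overlap, 1 probe set each, with bars for group means. Rab38 stands out with CDP at 7.03 to 8.16 and CMP at 10.27 to 11.05.

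The symbols that share the spelling showed no called difference. Rab3il1, an exchange factor, was at 4.20, 6.49 and 6.90 in CDP and 3.87 and 4.02 in CMP, below detection on CDP 1 and both CMP arrays (1.92 ± 0.81 SE, adjusted p = 0.327). Rab5if was at -0.04 ± 0.33 (SE), Rab10os at -0.82 ± 0.81 (SE) on its brighter probe set, and Rab26os stayed below the detection level.

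The proteins that load, unload and read Rab GTPases were followed through 137 listed genes, of which 129 had a probe set and 96 were tested. Of these 3 were higher in CDP, 1 was lower and 92 did not pass, which is 4.17% called against 2.14% of all genes (1.67% higher, 0.473% lower). Their median difference was 0.38, against 0.17 over all tested genes. Of 27 exchange factors 2 were higher, of 24 GTPase-activating proteins 1 was higher, of 39 effectors 1 was lower, and of 6 genes of lipid modification and recycling 0 were called, with 1 higher at an unadjusted p under 0.05. Among the called genes, Dennd1c and Tbc1d8 reached log2 5 on CDP arrays alone and Sytl4 on CMP arrays alone. They entered the test only through the group where they were higher. How many of all called genes did so was not counted.

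Dennd2c, an exchange factor of the DENN family that acts on Rab9, read 7.99, 7.40 and 7.46 in CDP and 5.05 and 4.27 in CMP. It was at least 6.03-fold higher in CDP, with values below log2 5 set to 5 (difference 2.96 ± 0.39 SE, limma adjusted p = 0.0325). Dennd1c, of the same family, read 5.79, 6.92 and 6.69 in CDP and 3.59 and 3.66 in CMP, undetected on both CMP arrays and at least 2.76-fold higher in CDP (adjusted p = 0.0415). Tbc1d8, which carries the TBC domain of Rab GTPase-activating proteins, read 6.84, 7.59 and 7.48 in CDP and 4.60 and 4.50 in CMP. It was at least 4.93-fold higher in CDP (2.75 ± 0.36 SE, adjusted p = 0.0318).

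The summed signals of dendritic and B cell marker lists were higher in CDP, as these 3 regulators were. Log2 of the summed signal of 10 dendritic cell genes, Itgax of the gate among them, was 8.51 to 10.16 in CDP and 6.81 to 7.79 in CMP. Of these 3 reached the detection level on at least 2 arrays, and Cd74, H2-Eb1, Xcr1, Siglech, Ccr7 and Cd209a stayed below it on all. Bst2, 1 of those 3, overlapped, at 4.36, 8.33 and 6.94 in CDP and 3.20 and 7.29 in CMP. H2-Aa, another of them, read 7.67, 8.97 and 8.01 in CDP and 5.91 and 4.19 in CMP. Its probe set has suffix x and may match other transcripts. The sum of 4 B cell genes was 7.26 to 8.32 in CDP and 6.26 to 7.12 in CMP. Cd79a, Ebf1 and Ms4a1 were below the level on all arrays, so only 1 gene of that list reached it. The sum of 8 macrophage genes overlapped, at 6.996 to 8.24 in CDP and 6.36 to 7.59 in CMP, with Mrc1, C1qa, C1qb, C1qc and Cd5l below the level on all arrays. Whether such cells were among those sorted was not tested, nor was any part of theirs in the differences of Dennd2c, Dennd1c and Tbc1d8.

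Sytl4, or granuphilin, binds Rab27 and Rab3 proteins and docks secretory granules at the plasma membrane. It read 3.07, 2.42 and 3.13 in CDP and 6.43 and 6.54 in CMP, detected on both CMP arrays and on no CDP array. It was at least 2.80-fold lower in CDP (-3.62 ± 0.36 SE, adjusted p = 0.0155). Sytl4 entered the test through its CMP arrays alone, and that difference and p rest on CDP values below the detection level. Sytl4 thus fell along with Rab38, while the transcript of its partner Rab27a differed by less than the spread between arrays. The summed signals of the mast cell and megakaryocyte lists given beside Rab38 were lower in CDP, as Sytl4 was. Any part of such cells in the Sytl4 difference was not tested. Leaving out 1 array ended the calls of Dennd2c, Dennd1c and Tbc1d8 in each case and that of Sytl4 without any 1 CDP array. Without CMP 1 or CMP 2 Sytl4 reached log2 5 on only 1 array and was not tested.

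Next by p came Rin2, Plekhm1, Vps11 and Dennd4b, none of which passed. Plekhm1, an adaptor of Rab7 on late endosomes, read 7.82, 7.64 and 7.82 in CDP and 6.28 and 6.31 in CMP (1.47 ± 0.30 SE, adjusted p = 0.0829). Vps11, a core subunit of the complexes that tether endosomes and lysosomes, was at 7.12, 7.39 and 8.003 in CDP and 5.39 and 5.90 in CMP (1.86 ± 0.40 SE, adjusted p = 0.0952). That probe set of Vps11 has suffix x and may match other transcripts, and the other tested set gave 2.28. Rin2, an exchange factor of Rab5, was at 5.05, 5.19 and 4.95 in CDP and 3.28 and 3.62 in CMP (adjusted p = 0.0741). It was below the detection level on CDP 3 and both CMP arrays and entered the test through CDP 1 and CDP 2. With values below log2 5 set to 5 Rin2 was 1.06-fold higher in CDP, which is no lower bound because CDP 3 was raised too. Dennd4b, an exchange factor of Rab10, read 8.09, 8.71 and 9.01 in CDP and 6.76 and 7.46 in CMP (1.49 ± 0.42 SE, adjusted p = 0.171). All CDP values were above both CMP values for 32 of the 96 tested regulators and for 23.7% of all tested genes. So they were for Plekhm1, Vps11 and Dennd4b, which were picked by p. These 3 passed with the 5′ signal as a block, as did Rin2 on values mostly below detection, and in that fit 11 of the 96 genes (11.5%) were called against 9.76% of all. Eea1, the effector of Rab5a, was at 0.72 ± 0.33 (SE, adjusted p = 0.360), and Gdi2, which extracts Rab proteins from membranes, at 0.35 ± 0.38 (SE). The 6 tested probe sets of Gdi2 ran from -0.03 to 1.01.

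**Figure D4:**
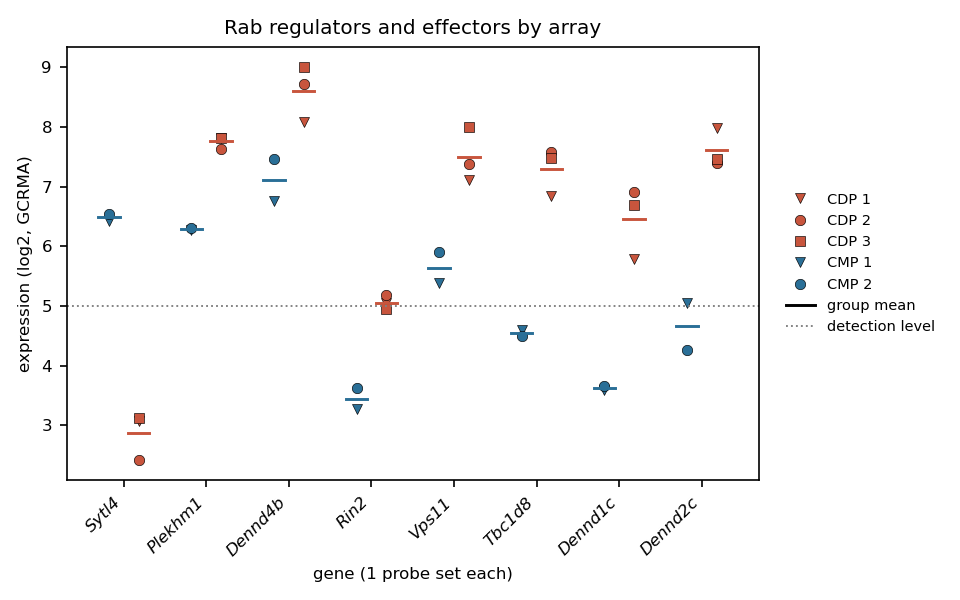
Expression on each array (y axis, log2) of the 4 called regulators and effectors and the next 4 by p (x axis), with bars for group means and a dotted line at the detection level of log2 5. Sytl4 lies above the line in CMP alone, and Tbc1d8 and Dennd1c in CDP alone.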

How the data were processed

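The deposited values are log2 expression per probe set of an Affymetrix mouse whole-genome array, made by the authors with GCRMA per the submitters' processing notes (version not given in the sources used here). GCRMA subtracts sequence-dependent background and quantile-normalizes. All values share a lowest value of 2.256, and values there have no order. Gene symbols came from the platform annotation, and all 59 Rab symbols matched the RefSeq table of GRCm38.p6 by gene identifier with 0 changed. Control probe sets were left out. Probe sets that reached log2 5 on at least 2 of 5 arrays were tested (16552 of 45037) with limma 3.58.1 (R 4.3.3; lmFit and eBayes, 2-sided, 3 residual and 3.14 prior degrees of freedom), with Benjamini-Hochberg adjustment over all of them and a threshold of 0.05. The fit was checked on simulated data. Adjusted p-values are from limma. Differences are CDP minus CMP with the standard error of the fit. For a gene the tested probe set with the highest mean was used. Where the dimmer group had arrays below log2 5, the fold is a lower bound with such values set to 5. For Rab39 and Rin2 it is no bound, since CDP arrays were below log2 5 as well. Precision is limited by having 5 arrays.

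Sample titles gave groups and replicate numbers, with 1 CDP title of another prefix. Every member is named. Values on each array are given for called members, up to 8 per direction with the largest differences and no overlap, Rab5a, Rab5c, Rab7, Rab11a, Rab4a, Rab27a, Rab32 and Rab38, genes whose probe sets differ in sign, called regulators and the next by p, 8 regulators in all. Members, lists, rule and settings were chosen with earlier results of these data known, and only the fit without both arrays low in 5′ actin signal (below log2 8) was added later. Alternatives were quantile or median scaling, 3 filters, trended or robust variance, array weights, both blocks, removal of probe sets that may match several transcripts, gene means and leaving out arrays. Marker lists of erythroid, macrophage, dendritic, B and T or NK cells had 0, 2, 3, 1 and 0 genes at log2 5 on at least 2 arrays.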

Additional observations from a re-analysis of the deposited data

How the results depend on the processing

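The count of called Rab genes was 1 in the main comparison and 0 to 2 over the alternatives, and a count of 1 was not always Rab38. It was Rab38 with quantile normalization, median scaling, the filter at log2 7, trended or robust variance, the replicate block and gene means, Rab39 with the filter at log2 4, and without a filter Rab40b, which lies at 2.26 to 2.37, where values have no order. With array weights and without probe sets of suffix x or s the counts of Rab genes and Rab probe sets were both 0 (limma, 7 and 5 genes at an unadjusted p under 0.05), with the 5′ signal block 2 and 5, and when both low-5′ arrays were left out 0 and 0 (13 genes unadjusted). Called Rab probe sets were 2 with quantile normalization, with median scaling and with the replicate block. Leaving out 1 array gave 0 to 0 called Rab genes, Rab probe sets and regulators (4 to 9 Rab genes and 12 to 25 regulators at an unadjusted p under 0.05). The 4 called regulators became 2 with the filter at log2 7, 0 without a filter (25 unadjusted), 0 when both low-5′ arrays were left out (38 unadjusted), 5 with the replicate block, 6 with gene means and 11 with the 5′ signal block. Rab38 was lower in CDP in all 18 alternatives, by -3.59 to -2.61, and passed in 8 of them.

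The median Rab difference of 0.25 became 0.12 with median scaling, 0.39 with the filter at log2 7, 0.018 without a filter, 0.41 without probe sets of suffix x or s, 0.37 with gene means and 0.066 without both low-5′ arrays, and leaving out 1 array gave 0.11 to 0.35. The median over all tested probe sets moved from 0.12 to 9.12e-05 with quantile normalization. Among differences that never passed, the sign of Rab21 turned to -0.016 with quantile normalization, -0.083 with median scaling, -0.061 with the replicate block, -0.040 with the 5′ signal block, -0.11 without both low-5′ arrays, -0.37 with gene means and to between -0.26 and 0.35 when 1 array was left out. Gene means turned Rab12 to -0.20 and Rab28 to -0.22, Rab14 became -0.16 without suffixes x and s and ran from -0.25 to 0.69 when 1 array was left out, and Rab27a became 0.035 with the replicate block and ran from -0.26 to 0.26 when 1 array was left out. The causes were not tested.

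Replicate numbers 1 and 2 occur in both groups. Deviations of same-numbered arrays from their group means correlated at 0.61 and 0.58 across probe sets, where both CMP arrays mirror each other by construction, and no label ties a number to an animal or day, so the replicate block was not used in the main comparison.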
